A study of Mus musculus with 2 samples.

Results

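Pi16 fibroblasts of mouse back skin were counted and described in 2 tissue sections in which transcripts of a 379-gene panel had been located one by one with the Xenium In Situ platform. A cell was taken as a Pi16 fibroblast where its outline held at least 20 transcripts of quality score 20 or above and at least 8% of these were Pi16. Cells were left out where 4 epithelial genes (Trim29, Dsc3, Serpinb5 and S100a14) reached 5% of the transcripts, where Car3, a carbonic anhydrase gene abundant in fat and muscle, reached 10%, or where 5 skeletal muscle genes (Ttn, Pvalb, Actn3, Pygm and Des) reached 30%. The rule gave 1406 cells of 59588, namely 1138 of 15306 in the mock section and 268 of 44282 in the SspA+HDM section. All skin came from the backs of C57BL/6 mice and had been shaved and depilated. Mock skin received PBS on its surface, and the other skin received SspA with HDM, the names the labels give. Skin was taken at day 7 and cut at 5 µm from fixed, paraffin-embedded blocks. The sources used here give neither age nor sex. With 1 sample per treatment, no difference has a replicate check and no test was run. Intervals in brackets are 95% and cover counting error only.

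Pi16 encodes peptidase inhibitor 16, a secreted protein best known as a marker of fibroblasts in the adventitia around vessels and in the fascia of many organs. These cells are often described as a reserve from which more specialised fibroblasts can form. In mouse back skin a thin sheet of skeletal muscle, the panniculus carnosus, divides the dermis and its fat from a loose fascia underneath.

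The mock section gave 2461475 gene transcripts of sufficient quality and the SspA+HDM section 8124205, with 94.5% and 97.6% of them inside outlines, and no cell identifier occurred in both sections. Each section held 2 strips of skin. Whether both strips of a section belong to 1 animal is not stated, so strips are shown side by side and are not replicates. Along the strips, mock held 1100 cells of at least 20 transcripts per mm and SspA+HDM 2883, so shares of cells and numbers per length are both given.

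Counted with whole outlines, Pi16 fibroblasts were fewer in the SspA+HDM section. They were 77.9 and 85.5 per mm in the mock strips and 13.8 and 21.1 per mm in the SspA+HDM strips, without overlap. Over the section they stood at 81.8 per mm (mock) and 17.4 per mm (SspA+HDM), a 4.69-fold difference. Their share of all cells was 7.43% (7.02 to 7.86) in mock and 0.605% (0.535 to 0.682) in SspA+HDM. Among cells that passed the cuts on epithelial, Car3 and muscle genes, the share was 23.7% (22.5 to 24.9) against 1.67% (1.48 to 1.89). The number depended strongly on how a cell is delimited. When the rule was applied only to transcripts over the nucleus, with at least 10 per cell, it found 1118 cells in mock and 693 in SspA+HDM, a 1.78-fold difference per mm; with at least 20 per cell, a setting chosen after seeing the data, the difference was 1.61-fold.

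The 8% limit cut through a continuous range of Pi16 levels. In mock, 206 cells passing the cuts lay just under it, from 7% to 8%, and 172 just over it, from 8% to 9%. In SspA+HDM these numbers were 75 and 55. Igfbp6, a marker of the same cells that the rule did not use, stood at 19998 counts per 1000000 panel transcripts (CPM) just under the limit and 20506 CPM just over it in mock, and at 25520 and 25698 CPM in SspA+HDM. Cells on either side of the limit therefore carried nearly the same Igfbp6 level.

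In space, the Pi16 fibroblasts lay on both sides of the skeletal muscle layer, and in mock they formed 2 bands. The word band is used here for the cells of either side in both sections. The layer was taken as the 10th to the 90th percentile of muscle cells in a 150-µm window along the strip. In mock, 569 cells lay above it, toward the surface, 8 within it and 560 below it. In SspA+HDM, 115 lay above, 21 within and 130 below. Both bands were sparser in SspA+HDM, while within the muscle there were more cells. Above the muscle the density was 40.9 per mm in each mock strip, and 7.82 and 7.15 per mm in the SspA+HDM strips. Below the muscle it was 36.0 and 44.5 per mm in the mock strips, and 4.04 and 12.9 per mm in the SspA+HDM strips. The SspA+HDM strips thus differed more from each other below the muscle than above it.

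Less of the SspA+HDM section had tissue below the muscle. Of the 100-µm bins along the strips, 88.5% in mock and 65.8% in SspA+HDM held at least 3 cells of any kind below the muscle, with 38 of 76 bins in the first SspA+HDM strip. Over those bins alone, cells of any kind below the muscle stood at 81.1 (mock) and 83.3 (SspA+HDM) per mm. Pi16 fibroblasts there stood at 45.0 per mm in mock, 45.0 and 45.1 in its strips, and at 13 per mm in SspA+HDM, 8.16 and 16.0 in its strips. This 3.46-fold difference is smaller than the 4.76-fold difference over the full length below the muscle, and in each SspA+HDM strip the density was under those of both mock strips. Of the cells passing the cuts below the muscle, 68.3% (65.0 to 71.5) were Pi16 fibroblasts in mock and 25.4% (21.7 to 29.4) in SspA+HDM. Above the muscle these shares were 15.1% (13.9 to 16.2) and 0.812% (0.671 to 0.974).

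To compare skins of unequal thickness, depth was also scaled so that 0 is the surface and 1 the middle of the muscle. From a depth of 0.4 to 0.6, Pi16 fibroblasts numbered 20.2 (mock) and 2.60 (SspA+HDM) per mm, and Pi16 over all cells passing the cuts was at 45373 CPM (44036 to 46741) and 10603 CPM (10234 to 10981). From 1.2 to 1.4, beneath the muscle, they were 26.5 and 1.5 per mm, and Pi16 was at 119096 CPM (116245 to 121998) and 56064 CPM (50383 to 62211). From 0.8 to 1.0 and from 1.0 to 1.2, next to the muscle, the order was the opposite, with 0.863 and 3.59 per mm in mock and 2.67 and 7.49 per mm in SspA+HDM. With 2.15 per mm from 0.6 to 0.8, SspA+HDM had no separate peak above the muscle. This scale divides by the thickness of the skin, which differed. The median depth of the deep band was 1.33 in mock and 1.16 in SspA+HDM on it, and in µm its median distance from the middle of the muscle was 52.4 in mock (54.7 and 51.3 in its strips) and 48.7 in SspA+HDM (43.4 and 51.1). The values per depth below the muscle therefore do not show a band nearer to the muscle.

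**Figure D1:**
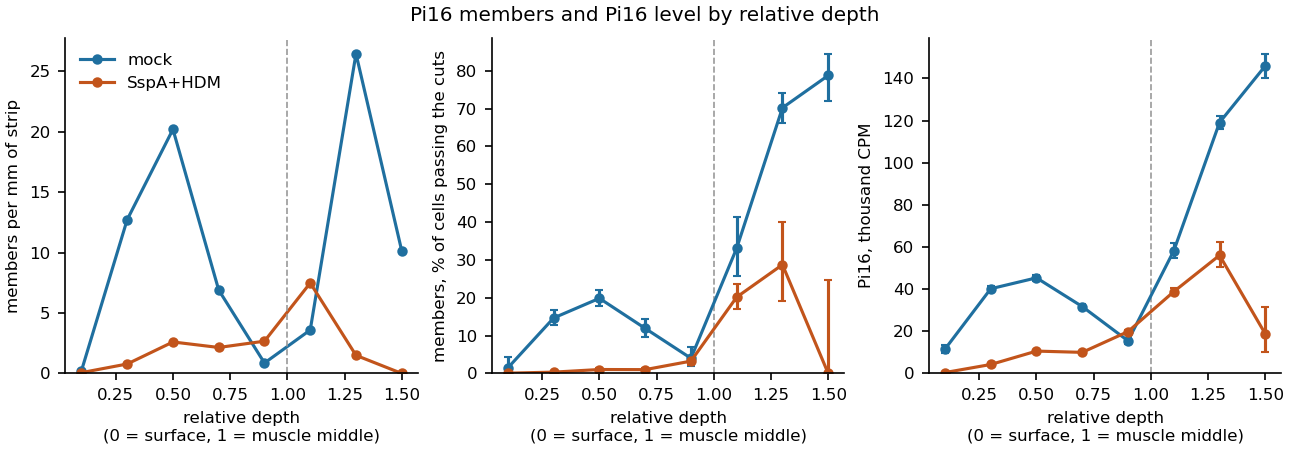
Pi16 fibroblasts per mm of strip, their share of cells passing the cuts in percent, and the Pi16 level of those cells in CPM / 1000, by relative depth from the surface (0) to the middle of the muscle (1, dashed) and beyond; bars are 95% counting intervals. Both mock peaks, at 20.2 per mm above and 26.5 per mm below the muscle, stand above the SspA+HDM values at those depths.

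The Pi16 transcripts themselves differed less than the number of cells. Counted over all outlines, whatever their kind, Pi16 reached 2152 transcripts per mm (mock) and 1727 (SspA+HDM). Above the muscle the values were 1119 and 1015 per mm, within it 206 and 418, and below it 827 and 260. Per length, Pi16 was thus 3.18-fold lower in SspA+HDM below the muscle and 1.10-fold lower above it. The value below the muscle divides by the full strip length. Only 65.8% of the bins in SspA+HDM, against 88.5% in mock, held at least 3 cells there. The transcripts were not corrected for this.

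What differed above the muscle was where the Pi16 transcripts lay. There, Pi16 fibroblasts held 322 of the Pi16 transcripts per mm in mock and 57.2 in SspA+HDM. Cells with 2% to 8% Pi16 held 390 per mm (mock) and 381 per mm (SspA+HDM), Car3-rich outlines held 207 and 215, and cells with under 2% Pi16 held 40.8 and 186. Car3-rich outlines, with at least 10% Car3, mix fat and muscle: in mock 1063 of 2601 were also skeletal muscle cells by the 5 muscle genes, of which 111 lay above the muscle layer among 1545 Car3-rich outlines there. Over the section, 46.3% of the Pi16 transcripts in outlines lay in Pi16 fibroblasts in mock and 9.47% in SspA+HDM. Outlines passing the cuts with under 2% Pi16 numbered 138 (mock) and 881 (SspA+HDM) per mm. In these counts, fewer cells of the type and less of the RNA per outline cannot be told apart.

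**Figure D2:**
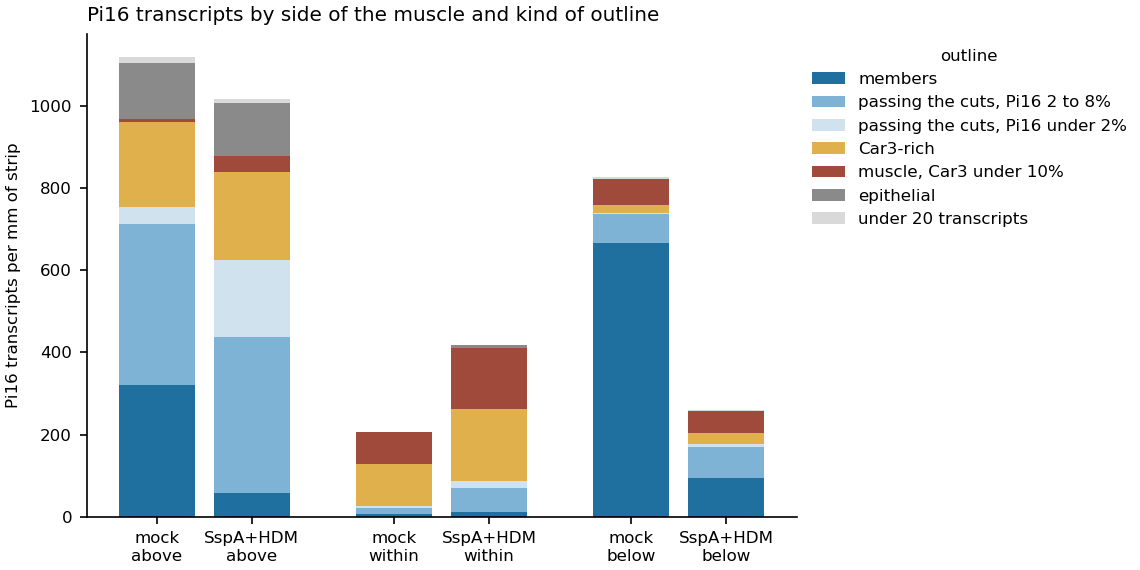
Pi16 transcripts per mm of strip above, within and below the muscle layer in each section, stacked by the kind of outline that held them. Above the muscle the stacks reach 1119 in mock and 1015 in SspA+HDM while the Pi16 fibroblast part ("members") is 322 and 57.2; below it the whole stack is 827 and 260.

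A choice of cells that did not use Pi16 gave the same order. Cells with at least 8% of Igfbp6 and Pcolce2 together, under the same cuts, numbered 41.2 (mock) and 9.24 (SspA+HDM) per mm. Of these, 60.2% (56.1 to 64.2) in mock and 31.0% (23.5 to 39.3) in SspA+HDM also had 8% Pi16. Below the muscle that share was 85.4% (81.0 to 89.0) against 57.6% (44.1 to 70.4), and above it 29.0% (23.3 to 35.2) against 9.46% (3.89 to 18.5). Median transcripts per cell in this choice were 82 and 45, so the Pi16 share was read at unequal depth. The totals of the 2 genes differed little. Over all outlines, Igfbp6 reached 946 (mock) and 860 (SspA+HDM) transcripts per mm and Pcolce2 826 and 830. Outlines passing the cuts with under 2% Pi16 held 92.5 and 370 of the Pcolce2 transcripts per mm. Here too, fewer cells and less of the RNA per outline cannot be told apart.

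The cells were then checked against their label. Without Pi16, which the rule used, the 9 other fibroblast genes on the panel made up 26.1% (mock) and 25.8% (SspA+HDM) of their transcripts. Igfbp6, an insulin-like growth factor binding protein, and Pcolce2, an enhancer of procollagen processing, are the other markers of the label. For comparison, Pi16-low fibroblasts were cells under the same cuts with less than 2% Pi16 and at least 15% from 7 other fibroblast genes (Lum, Dpt, Mfap4, Mfap5, Aspn, Sfrp1 and C3). The same 9 genes made up 23.8% and 24.6% of the transcripts of these cells, which were chosen by 7 of them. Igfbp6 was at 40227 CPM in mock Pi16 fibroblasts and 14298 CPM in mock Pi16-low fibroblasts, 2.81-fold (2.51 to 3.17) higher, and in SspA+HDM at 34006 against 4186 CPM, 8.12-fold (7.44 to 8.86) higher. Pcolce2 was at 27814 against 19398 CPM in mock, 1.43-fold (1.29 to 1.59) higher, and at 15552 against 9723 CPM in SspA+HDM, 1.6-fold (1.43 to 1.79) higher. Pi16-low fibroblasts lay almost all above the muscle, 294 of 309 in mock and 4114 of 4501 in SspA+HDM. With both kinds of cell taken above the muscle, a comparison added after seeing the data, Igfbp6 was at 15607 against 13009 CPM in mock, 1.2-fold (1.04 to 1.39), and at 16848 against 3666 CPM in SspA+HDM, 4.60-fold (3.83 to 5.48). Pcolce2 was then 1.43-fold (1.27 to 1.6) higher in mock and 1.18-fold (0.948 to 1.44) in SspA+HDM. In mock, the Igfbp6 difference therefore lay mostly in the deep band.

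The name fascial fitted the position of the band below the muscle, and the name adventitial was not borne out by distance to vessels. A vessel cell was a smooth muscle or blood endothelial cell, by at least 10% of its transcripts from the markers of that type on the panel (Myh11, Cnn1, Tagln and Mylk, or Vwf, Plvap, Kdr, Aqp1 and Sox17). Smooth muscle of the hair-erecting muscles carries the same genes. Above the muscle, 38.0% of Pi16 fibroblasts and 40.5% of Pi16-low fibroblasts lay within 20 µm of a vessel cell in mock, and 46 of 115 and 51.3% in SspA+HDM. Below the muscle 2 of 560 cells in mock and 1 of 130 in SspA+HDM did. For lymphatic endothelial cells the shares above the muscle were 21.8% of Pi16 fibroblasts and 15% of Pi16-low fibroblasts in mock, and 10.4% and 9.02% in SspA+HDM. Pi16-low fibroblasts were scarce below the muscle, with 7 of 309 in mock and 37 of 4501 in SspA+HDM.

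Pi16 fibroblasts had other Pi16 fibroblasts as neighbours more often in mock. Below the muscle the nearest cell was another Pi16 fibroblast for 71.2% of them in mock and 28.5% in SspA+HDM. It was a skeletal muscle cell for 10.9% and 26.9%. Of all cells below the muscle, 55.0% (mock) and 14.8% (SspA+HDM) were Pi16 fibroblasts. The neighbour shares were not set against this abundance and are no measure of clustering. The median distance to the next Pi16 fibroblast was 18.1 µm in mock and 20.1 µm in SspA+HDM below the muscle, and 16.3 and 55.0 µm above it. Cell outlines below the muscle had a median area of 448 µm² in mock and 313 µm² in SspA+HDM, and above it of 157 and 99.7 µm².

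Transcripts of other cell types in the Pi16 fibroblasts were measured by their marker lists. The 5 skeletal muscle genes made up 3.89% (mock) and 6.83% (SspA+HDM) of the transcripts (below the muscle 5.48% and 8.79%). The 6 macrophage genes made up 0.778% and 1.18%, the 4 smooth muscle genes 0.683% and 0.390%, the 4 epithelial genes 0.317% and 0.299%, and the 5 blood endothelial genes 0.279% and 0.485%. No marker of these lists was at 0. The adipocyte list made up 1.85% and 2.84%, the granulocyte list 1.15% and 0.735%, and the Schwann and nerve sheath list 0.777% and 0.757%. Il1r2, which is on the granulocyte list, was at 11120 CPM in mock and 6212 CPM in SspA+HDM. The part of these transcripts in the differences between sections was not tested. Genes with a level under 0.25 of that in another cell class were set aside as possible spill-over. The classes held no granulocytes or pericytes, so Il1r2 was not compared with granulocytes. Some classes were small, such as 11 T cells in mock, 1 of them also a Pi16 fibroblast.

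Most of the 12 most abundant genes of the Pi16 fibroblasts encode secreted or matrix proteins. Beside Pi16 (136624 CPM in mock), which the rule selected, the leading genes were Dpt, Lum, Igfbp6, C3, Retnla, Timp3, Anxa2, Pcolce2, Serpinf1, Bgn and Mfap4. Dpt, which encodes the matrix protein dermatopontin, was at 61095 CPM in mock. Lum, the collagen-binding proteoglycan lumican, was at 46640 CPM. C3, the central complement component, was at 39220 CPM, and Retnla, the secreted factor RELM alpha, at 32975 CPM. Timp3, an inhibitor of metalloproteinases, was at 29936 CPM, the membrane-binding annexin Anxa2 at 28870 CPM and Serpinf1, which encodes pigment epithelium-derived factor, at 26749 CPM.

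Against Pi16-low fibroblasts in mock, 19 of 98 genes with at least 100 transcripts (19.4%) were 2-fold or more higher in Pi16 fibroblasts and 20 (20.4%) were lower by that factor. Since Pi16-low fibroblasts were chosen by 7 of these genes, and since the rule split the cells by Pi16, these levels describe the cells and are no test. Position enters them too, since 560 of the 1138 Pi16 fibroblasts but 7 of the 309 Pi16-low fibroblasts lay below the muscle. Retnla was 7.24-fold (5.93 to 8.93) higher, the BMP-responsive membrane gene Tmem100 6.40-fold (4.57 to 9.24), the serine protease gene Prss23 4.37-fold (3.39 to 5.72), and the chemokine-scavenging receptor gene Ackr3 4.31-fold (3.17 to 6.00). Timp3, C3 and the microfibril gene Mfap5 were 2.28-, 2.17- and 2.25-fold higher. Nox4, an NADPH oxidase, was 2.47-fold (1.76 to 3.55) higher and Aif1l 2.43-fold (1.41 to 4.55) higher. Also among the leaders were the matrix protease gene Mmp9 (6.12-fold, 4 transcripts in the Pi16-low cells), the hyaluronan receptor gene Lyve1 (4.20-fold), both possible spill-over, and the muscle genes Pgam2 and Actn3 (3.20- and 3.02-fold); over the nucleus alone the log2 ratios of Pgam2 and Actn3 were -0.057 and -0.18. Lower in Pi16 fibroblasts over all zones were Coch (3.88-fold), S100a4 (2.47-fold) and the proteoglycan genes Bgn (2.44-fold) and Aspn (2.43-fold).

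Above the muscle alone, most of these differences in mock were small or absent. Of 70 genes, 3 (4.29%) were higher by 2-fold or more and 4 (5.71%) lower. The 3 were Pi16, Fibin (2.59-fold) and Scin (2.14-fold), and the 4 were Myl9, Aspn, Cav1 and Anxa8. Retnla was at 2939 CPM in Pi16 fibroblasts and 3410 CPM in Pi16-low fibroblasts, with a ratio of 0.862 (0.636 to 1.17), and C3 at 10199 and 16565 CPM, with a ratio of 0.616 (0.532 to 0.713). The ratio was 0.831 (0.631 to 1.1) for Mfap5, 1.4 (0.914 to 2.21) for Tmem100, 1.18 (0.805 to 1.75) for Ackr3 and 1.16 (0.831 to 1.63) for Prss23. High Retnla, C3, Mfap5, Tmem100, Ackr3 and Prss23 levels in mock were thus those of the deep band.

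In SspA+HDM the same comparison over all zones gave larger ratios for several of these genes. Of 50 genes, 19 (38.0%) were higher by 2-fold or more and 8 (16.0%) lower. C3 was at 64883 CPM in Pi16 fibroblasts and 7684 CPM in Pi16-low fibroblasts, 8.44-fold (7.92 to 9.0) higher. Retnla was at 10701 against 411 CPM, 26.0-fold (21.2 to 32.1) higher, and Tmem100 at 7935 against 986 CPM, 8.04-fold (6.69 to 9.65) higher. Mfap5 was 5.18-fold (4.52 to 5.93) higher. Above the muscle alone, 7 of 21 genes (33.3%) were higher by 2-fold or more and 0 (0.00%) lower. There C3 was 2.95-fold (2.48 to 3.48) and Tmem100 3.46-fold (2.23 to 5.17) higher, Tmem100 from 26 transcripts, and Retnla rested on 5 transcripts.

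The cells of the 2 bands differed from each other across much of the panel. In mock, 88 genes had at least 100 transcripts in a band, of which 27 (30.7%) were at least 2-fold higher below the muscle and 31 (35.2%) at least 2-fold higher above it. The strips did not overlap for any of these, nor for 90.9% of all 88 genes, so this is no mark of the genes called. Without possible spill-over, 17 of the 27 called below and 16 of the 31 called above remained. Their share of all genes without possible spill-over is not given here. The muscle genes Actn3, Des, Pvalb, Pygm and Ttn were among those left out. Pi16 itself was 1.4-fold (1.35 to 1.45) higher below.

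The genes with the highest ratios below the muscle were Retnla, Tmem100, Aif1l, Prss23 and Ccn3. Retnla was at 54980 and 52322 CPM below the muscle in the mock strips and at 4316 and 1573 CPM above it, 18.2-fold (15.2 to 22.0) higher below. C3 was at 58650 and 59634 CPM below and at 10269 and 10128 CPM above, 5.80-fold (5.24 to 6.44) higher below. Tmem100 was 7.70-fold (6.15 to 9.76) higher below, Prss23 6.34-fold (5.25 to 7.71), the actin-related gene Aif1l 6.77-fold, and the matricellular gene Ccn3 6.29-fold (4.34 to 9.43). In none of these genes did a strip below the muscle come near the values above it.

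Further genes of the deep band included markers of the label. Igfbp6 was at 56720 and 56937 CPM below and at 16520 and 14701 CPM above, 3.64-fold (3.35 to 3.97) higher below. Ackr3 was 5.49-fold (4.42 to 6.89) higher below, Mfap5 4.36-fold (3.64 to 5.24), Dpt 3.14-fold (2.94 to 3.36) and Timp3 2.98-fold (2.72 to 3.28). Pcolce2, in contrast, was at 29136 and 26581 CPM below and at 28824 and 27288 CPM above, with a ratio of 0.99 (0.915 to 1.07) and overlapping strips. In mock, 1 marker of the label thus separated the bands and the other did not. In SspA+HDM Pcolce2 was also higher below, with log2 ratios of 0.547 to 1.61 over 5 alternative settings.

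The band above the muscle had its own genes. Mfap4, a microfibril-associated protein, was at 46237 and 54722 CPM above the muscle and at 492 and 659 CPM below it, 86.3-fold (61.8 to 124) higher above. Coch, which encodes the matrix protein cochlin, was at 3175 and 4720 CPM above and had 4 transcripts in all below. Serpina3n, a serine protease inhibitor, was at 25053 and 27140 CPM above and at 530 and 809 CPM below, 38.1-fold (27.9 to 53.4) higher above. Hardly any Mfap4 or Serpina3n was found in the deep band of mock. Bgn, the proteoglycan biglycan, was 7.08-fold (6.34 to 7.92) higher above, and Tnfaip6, a hyaluronan-binding protein induced by TNF, 6.64-fold (4.87 to 9.22). The calcium-binding gene S100a4 was 22.5-fold (18.1 to 28.2), the cytochrome P450 gene Cyp4b1 20.6-fold (14.2 to 31.0), the decoy interleukin-1 receptor gene Il1r2 3.93-fold (3.44 to 4.5) and Lum 2.55-fold (2.41 to 2.71) higher above. Smooth muscle genes Mylk and Tagln and the lymphatic gene Mmrn1 were 100.4-, 99.7- and 70.9-fold higher above, from 4, 2 and 3 transcripts below, and were set aside as possible spill-over.

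**Figure D3:**
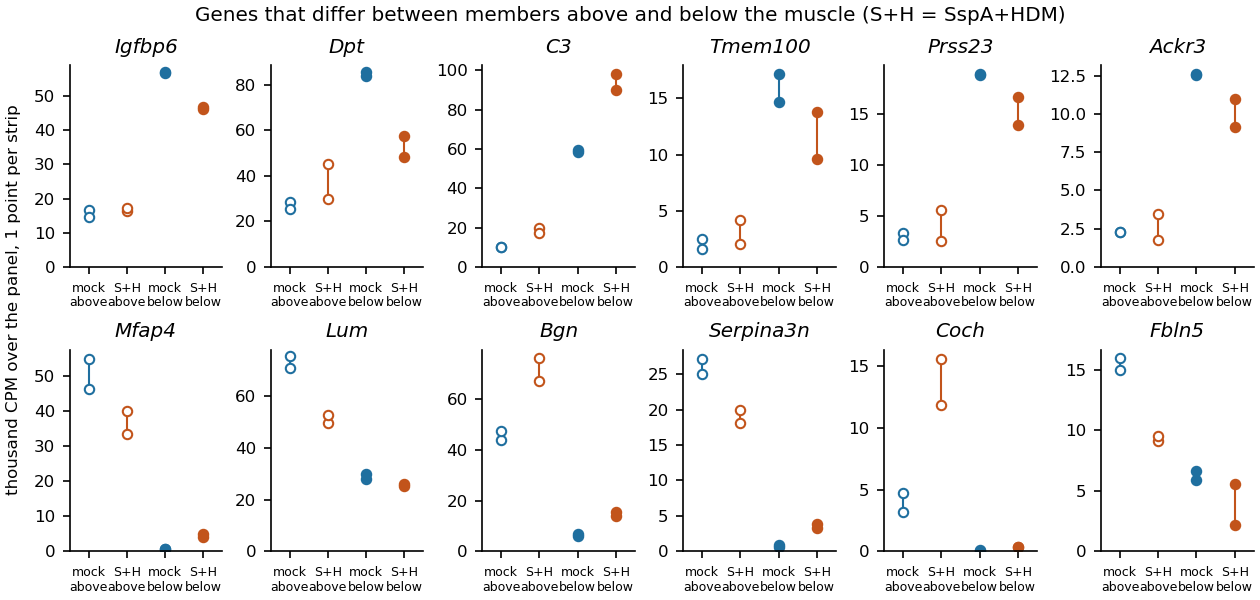
Level of 12 genes in Pi16 fibroblasts above (open) and below (filled) the muscle in each strip of mock (blue) and SspA+HDM (orange), in CPM / 1000. The upper row holds genes higher below the muscle, such as Igfbp6 at 56720 and 56937 CPM below against 16520 and 14701 CPM above in mock, and the lower row genes higher above, such as Mfap4 at 46237 and 54722 CPM.

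The share of cells with a transcript told the same order. After thinning each cell to 40 transcripts, 76.4% of 509 cells below the muscle and 6.36% of 440 cells above it held Retnla in mock (86.1% and 10.2% without thinning), and 2.55% and 73.6% held Mfap4 (5.89% and 80.3%). In epithelial cells, thinned in the same way, 0.982% held Retnla and 8.01% held Mfap4 (2.19% and 16.1% without thinning). Mfap4 in the mock deep band was thus below the share found in epithelial cells. Thinning left out 51 of 560 cells below, 129 of 569 above and 468 of 7086 epithelial cells. Median transcripts per cell before thinning were 92 below, 62 above and 120 in epithelial cells. In SspA+HDM the deep band stood above epithelial cells for Mfap4. There, 13.4% of 112 thinned deep cells and 6.86% of thinned epithelial cells held it (20.8% and 14.7% without thinning).

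The bands were compared in the same way in SspA+HDM. Of 36 genes with enough transcripts there, 14 (38.9%) were at least 2-fold higher below and 9 (25.0%) at least 2-fold higher above. Over these 36 genes, 13 were higher below in both sections, 76.5% of the 17 called in mock and 92.9% of the 14 called in SspA+HDM, and 7 were higher above in both, 77.8% of the 9 called in each. Of the 13, 5 were the muscle genes Actn3, Des, Pvalb, Pygm and Ttn that the rule had limited. Without possible spill-over in either section, 28 genes remained, of which 8 were higher below in both sections (66.7% of 12 in mock and 88.9% of 9 in SspA+HDM) and 7 higher above in both (87.5% of 8 and 77.8% of 9). The 8 include Folr2, a macrophage gene. Retnla was at 15404 and 19929 CPM below and at 506 and 698 CPM above in the SspA+HDM strips, 30.9-fold (13.1 to 96.2) higher below, from 5 transcripts above. C3 was 5.22-fold (4.40 to 6.22) and Igfbp6 2.75-fold (2.28 to 3.34) higher below. Mfap4 was 8.76-fold (6.49 to 12), Coch 42.0-fold (16.0 to 157) and Bgn 5.03-fold (4.24 to 5.99) higher above.

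Ccn3 had the opposite order in the 2 sections, a difference that was not tested. It was at 744 and 787 CPM above and at 5108 and 4585 CPM below the muscle in mock, and at 12895 and 17928 CPM above and at 7859 and 5567 CPM below in SspA+HDM. In SspA+HDM it was 2.52-fold (1.88 to 3.39) higher above. Mfap5 kept its order, with a 4.36-fold difference in mock and a 1.29-fold (1.0 to 1.68) difference in SspA+HDM. In SspA+HDM cells without a macrophage-gene transcript, which are few, the log2 ratio of Ccn3 below over above was 0.95.

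Levels within Pi16 fibroblasts were then compared between treatments. Of the 98 genes that reached 100 transcripts in either section, SspA+HDM had 5 (5.10%) higher by 2-fold or more and 8 (8.16%) lower. Leaving out 46 genes of possible spill-over, 4 of 52 were higher and 4 lower, and all strips of one treatment lay on one side of those of the other for each. Strips were also apart for 72 of all 98 genes tested, so this is no mark of the genes called. The median log2 ratio over all 98 genes was -0.05.

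The 4 genes at least 2-fold higher encode a coagulation factor and secreted matrix or signalling proteins. F3, the coagulation starter tissue factor, was at 1075 and 929 CPM in the mock strips and 4587 and 3503 CPM in the SspA+HDM strips, 3.91-fold (2.90 to 5.27) higher. Coch was at 1350 and 1858 CPM in mock and at 5950 and 5004 CPM in SspA+HDM, 3.31-fold (2.59 to 4.22) higher; among cells chosen by Igfbp6 and Pcolce2 in place of Pi16, its log2 ratio was -0.27. Ccn3 was at 3184 and 3139 CPM in mock and at 10413 and 9508 CPM in SspA+HDM, 3.11-fold (2.60 to 3.70) higher. Sfrp1, a secreted Wnt inhibitor, was at 3268 and 2991 CPM in mock and at 8058 and 6434 CPM in SspA+HDM, 2.25-fold (1.85 to 2.74) higher. Below 2-fold followed Aspn (1.84-fold), Bgn (1.68-fold), C3 (1.65-fold), Selenbp1 (1.57-fold), the bicarbonate carrier gene Slc4a4 (1.56-fold) and the folate receptor gene Folr2 (1.56-fold). Folr2 is among the 12 macrophage genes by which deep cells are split below. In SspA+HDM it stood at 0.698 of its level in macrophage cells, the class where it was highest.

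The 4 genes at least 2-fold lower were Scin, Cyp4b1, Retnla and Fibin. Retnla was at 32685 and 33195 CPM in the mock strips and at 6446 and 13154 CPM in the SspA+HDM strips, 3.08-fold (2.70 to 3.53) lower. Below the muscle, where Retnla was higher, lay 46.2% and 52.0% of Pi16 fibroblasts in the mock strips. In the SspA+HDM strips 29.2% and 61.1% lay there. The part of this mix in the strip values and pooled ratios was not tested. Scin, which encodes an actin-severing protein, was at 3205 and 2656 CPM in mock and at 496 and 1072 CPM in SspA+HDM, 3.42-fold (2.16 to 5.77) lower. Cyp4b1 was at 4955 and 3975 CPM in mock and at 992 and 1644 CPM in SspA+HDM, 3.15-fold (2.19 to 4.70) lower. Fibin, a secreted fin bud initiation factor, was 2.32-fold (1.66 to 3.30) lower. Below 2-fold came Il1r2 and Pcolce2 (both 1.79-fold lower), the prostaglandin-degrading enzyme gene Hpgd (1.74-fold, with 13 transcripts in SspA+HDM), Timp3 (1.64-fold), the elastic fibre gene Fbln5 (1.6-fold) and Fxyd1, a regulator of the sodium pump (1.46-fold). Over all outlines, Retnla was also lower, at 897 (mock) and 283 (SspA+HDM) transcripts per mm, 3.17-fold. C3 over all outlines was at 1164 and 2235 per mm, 1.92-fold higher.

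Hp, the haemoglobin-binding protein haptoglobin, had the highest ratio of all genes, 5.69-fold (4.58 to 7.08), and was set aside as possible spill-over. Car3-rich outlines held 84.2% of the Hp transcripts in cells in mock. The Hp level was 2320 and 817 CPM in the mock strips and 15123 and 5004 CPM in the SspA+HDM strips. The share of adipocyte-list transcripts in Pi16 fibroblasts was 1.85% in mock and 2.84% in SspA+HDM, and its part in the Hp difference was not tested.

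The treatments were also compared within each band; whether the bands differ in response was not tested. Above the muscle 71 genes were tested, of which SspA+HDM had 7 (9.86%) higher by 2-fold or more and 12 (16.9%) lower. Ccn3 was at 766 CPM in mock and 15515 CPM in SspA+HDM, 20.3-fold (13.6 to 31.1) higher, from 31 and 128 transcripts. Coch was 3.5-fold (2.73 to 4.47), Mfap5 3.27-fold (2.49 to 4.28), Sfrp1 2.45-fold (1.82 to 3.29) and Aspn 2.37-fold (2.05 to 2.73) higher, as were Hp and the muscle gene Ttn. Scin was 8.4-fold (3.22 to 31.2) lower from 4 transcripts in SspA+HDM, Fibin 5.48-fold (3.02 to 11.1), Retnla 4.85-fold (2.02 to 15.2), Cyp4b1 4.74-fold (2.96 to 8.08), Ndrg1 4.65-fold (2.62 to 9.11), Il1r2 4.16-fold (3.03 to 5.87), S100a4 3.68-fold (2.92 to 4.71) and Pcolce2 2.44-fold (1.97 to 3.04) lower. The other 4 genes called lower were Mmrn1, Myh11, Myl9 and Pf4, genes of lymphatic, smooth muscle and platelet or macrophage type. The Ccn3 rise above the muscle was not confined to Pi16 fibroblasts. Over all outlines there, Ccn3 was at 62.9 (mock) and 360 (SspA+HDM) transcripts per mm, 5.73-fold higher. In outlines passing the cuts with under 2% Pi16 it was at 13.9 and 160 per mm. These outlines numbered 118 and 799 per mm.

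Below the muscle 69 genes were tested, of which 6 (8.70%) were higher in SspA+HDM by 2-fold or more and 2 (2.90%) lower. The iron-oxidising plasma protein gene Cp was at 1892 and 1918 CPM in the mock strips and at 6602 and 7348 CPM in the SspA+HDM strips, 3.75-fold (2.81 to 5.00) higher. Bgn was 2.20-fold (1.83 to 2.64) and Sfrp1 2.08-fold (1.54 to 2.79) higher. Ctss, Cybb and Laptm5, genes best known from macrophages, were 2.74-, 2.11- and 2.07-fold higher, while the 6 macrophage markers made up 0.552% (mock) and 1.5% (SspA+HDM) of the transcripts; the part of macrophage transcripts in these 3 genes was not tested. Retnla was 2.85-fold (2.49 to 3.28) and Myl9 2.17-fold lower. C3 was at 58650 and 59634 CPM in mock and at 90223 and 98196 CPM in SspA+HDM, below 2-fold but without overlap of strips. Among deep cells alone, Cyp4b1 and Fibin were not lower in SspA+HDM, with log2 ratios of 0.98 and 0.059.

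**Figure D4:**
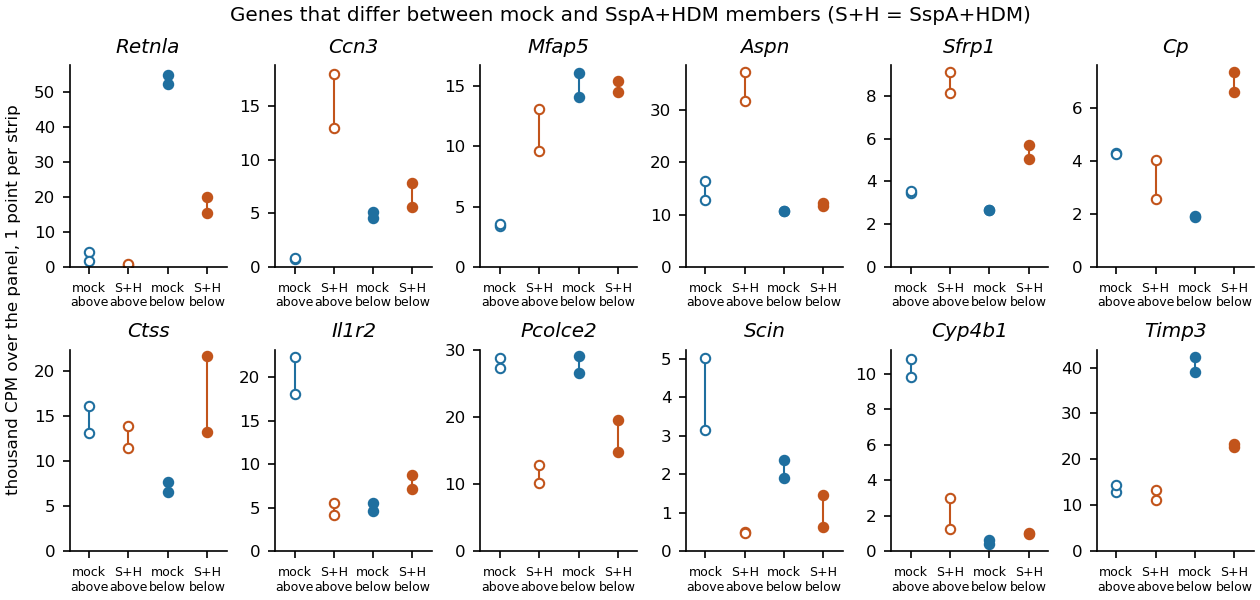
Level of 12 genes in Pi16 fibroblasts above (open) and below (filled) the muscle in each strip of mock (blue) and SspA+HDM (orange), in CPM / 1000. Ccn3 above the muscle stands at 744 and 787 CPM in mock and 12895 and 17928 CPM in SspA+HDM, and Retnla below it at 54980 and 52322 against 15404 and 19929 CPM.

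Retnla in the deep band went with macrophage genes in both sections, and was lower in SspA+HDM at each level of them. Deep cells were split by their share of 12 macrophage genes. In those without such a transcript, Retnla was at 20423 CPM in mock (108 cells) and 4425 CPM in SspA+HDM (16 cells, 3 transcripts). With a share above 0 and under 5% it was at 35478 CPM (279 cells) and 11214 CPM (48 cells), and with at least 5% at 102057 CPM (173 cells) and 26036 CPM (66 cells). C3 showed the opposite order in mock, at 75160, 64047 and 42846 CPM. With each outline counted once, 26.8% of mock Retnla lay in Pi16 fibroblasts, 31.4% in Car3-rich outlines, 18.7% in cells with 2% to 8% Pi16 and 11.6% in muscle cells under 10% Car3. Cells with at least 5% macrophage genes were 173 of 560 in mock and 66 of 130 in SspA+HDM.

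Distance to vessels separated few genes. Among cells above the muscle in mock, 216 lay within 20 µm of a vessel cell and 63 beyond 50 µm. Of 33 genes, 5 (15.2%) were at least 2-fold higher near vessel cells and 0 (0.00%) lower. The 5 were the contractile genes Myh11, Tagln, Des, Myl9 and Mylk, from 10.7-fold down to 3.37-fold, which are genes of the smooth muscle cells by which nearness was defined. In SspA+HDM, 46 cells lay near and 21 far, and of 8 genes none reached 2-fold (0.00% in each direction). Without the second mock strip, or over the nucleus alone, the count in mock was 0.

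The gene lists are given beside the shares called over all genes, which were 5.10% higher and 8.16% lower between treatments, and 30.7% below and 35.2% above between bands in mock. Between treatments, 0 of the 7 genes of the Pi16 fibroblast list on the panel (of 33 on the list) reached 2-fold in either direction, with a median log2 ratio of -0.36 against -0.05 over all genes; they ran from Pcolce2 (0.559) and Dpt (0.775) up to Igfbp6 (0.845) and Mfap5 (1.23) as SspA+HDM over mock ratios. Between bands in mock, 5 of these 7 were at least 2-fold higher below and 0 above. Their median log2 ratio was 1.86 against -0.42 over all genes. In SspA+HDM 3 of 7 were at least 2-fold higher below. Pi16 is among the 7 and enters these counts and medians. The rule held it at 8% or more in every cell, so its values are a description only. Of 7 immune signal genes tested, 1 (Hp) was at least 2-fold higher and 1 (Retnla) at least 2-fold lower in SspA+HDM, with C3 and Il1r2 next, and 5 of 7 were higher below the muscle in mock and 2 higher above.

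The remaining lists were short on this panel. Of 3 matrix genes tested 0 reached 2-fold between treatments, with Lum at a ratio of 0.779, Bgn at 1.68 and Aspn at 1.84 and a median log2 ratio of 0.75. Of 3 elastic microfibril genes 0 did, with Fbln5 at 0.625, Mfap4 at 0.843 and Mfap5 at 1.23. Of 4 matrix proteolysis genes 0 did, with Pcolce2 at 0.559, Timp3 at 0.610, Mmp9 at 0.651 and the serine protease gene Htra3 at 0.956. Of 2 growth signal genes, Sfrp1 was at least 2-fold higher and Igfbp6 was not. The activated fibroblast genes Tagln (0.671) and Stmn1 (1.30), both possible spill-over, and the interferon-inducible proteasome gene Psmb8 (0.948) did not reach 2-fold.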

How the data were processed

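The deposited tables, per the file headers, list each decoded transcript with its gene, cell, position, nuclear overlap and a quality score made by the authors' decoding, and the outline of each cell in coordinates taken as µm, deposited with no further unit (unit other). Which software decoded and segmented the images is not given in the sources used here. Gene transcripts were summed by outline from a quality score of 20 up; 0 columns of other samples were used. Levels are sums over cells per 1000000 panel transcripts (CPM). Genes needed 100 transcripts in a group compared and were called by a 2-fold size, with 0 tests. Ratios have exact conditional binomial intervals, shares Clopper-Pearson intervals and sums exact Poisson intervals, all at 95%. Strips link cells within 100 µm; distances are between centroids. A gene was set aside where its level was under 0.25 of its highest class. Doublets were not called. Adipocytes and muscle cells share Car3, so classes can overlap. Members, lists and cell type markers were chosen with earlier results of these data known.

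Named genes are the 12 of highest level and 12 of highest ratio to Pi16-low fibroblasts in mock, the 10 highest and 10 lowest treatment ratios not set aside, the 5 highest and 5 lowest ratios between bands, the 2 highest and 2 lowest of each list, and Pi16, Igfbp6 and Pcolce2. Other genes were named after their values were seen. Alternatives changed the Pi16 limit, quality score, depth, nucleus, cuts, scale, strips and count minimum. Scripts were tested on simulated data. Python 3.11.15, numpy 2.4.6, scipy 1.17.1, pandas 2.3.3 and matplotlib 3.10.9 were used.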

Additional observations from a re-analysis of the deposited data

Results flagged for a closer look

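Pi16 transcripts outside any outline were not used in the comparisons. They numbered 2312 in mock, 7.17% of all Pi16 transcripts of that section, and 504 in SspA+HDM, 1.86%, above the highest control feature of each section, at 34 and 127. Over all genes 5.53% of the transcripts lay outside outlines in mock and 2.40% in SspA+HDM.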

How the results depend on the processing

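No paired analysis was possible because there is 1 sample per treatment. Alternatives by macrophage or muscle transcripts, by 1 band (also against Pi16-low fibroblasts), by the median muscle position and by 20 nuclear transcripts were chosen after seeing the data. Of 147 alternative values of the main results 82 stayed near the reported one, and for single genes 595 of 887. The share of cells in mock and SspA+HDM was 11.9% and 1.53% at a Pi16 limit of 5%, 3.87% and 0.212% at 12%, 6.83% and 0.520% without a quality filter, 6.93% and 0.506% at 40 transcripts per cell, 5.84% and 0.528% when thinned to 40, 3.74% and 0.321% when chosen without Pi16, 8.31% and 1.70% over the nucleus, and 6.82% and 1.43% with 20 nuclear transcripts. The ratio per mm was 2.98 at 5%, 6.97 at 12%, 4.01 at a quality of 30, 1.78 over the nucleus and 1.61 with 20 nuclear transcripts; leaving out 1 strip gave 3.88 to 5.92, and SspA+HDM shares of 0.521% to 0.677%. The share below the muscle was 69.0% in mock and 67.0% in SspA+HDM at 12%, 46.2% to 52.0% in mock without 1 strip, and 61.1% and 29.2% in SspA+HDM without its first and second strip. Within 20 µm of a vessel lay 23.6% and 19.1% with a vessel limit of 20%.

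Genes higher in SspA+HDM, 5 in the report, were 18 at 5% Pi16, 9 at 12%, 11 without a quality filter, 3 without macrophage transcripts, 16 at 30 transcripts, and 5 to 11 without 1 strip (8 and 11 without the first and second SspA+HDM strip). Genes lower, 8, were 2 below the muscle, 14 at 30 transcripts and 5 without the second mock strip. Coch turned to -0.27 (log2) without Pi16 in the rule. Below the muscle Fibin turned to 0.059 and Cyp4b1 to 0.98, Cyp4b1 from 30 transcripts in mock. Against Pi16-low fibroblasts, mock counts over the nucleus were 7 higher and 5 lower, with Pgam2 at -0.057 and Actn3 at -0.18; SspA+HDM counts at 12% were 6 and 3. With both kinds of cell above the muscle, counts were 3 and 4 in mock and 7 and 0 in SspA+HDM, and C3 (-0.70), Retnla (-0.21) and Aif1l (-0.87) turned in mock and Aif1l (-0.14) in SspA+HDM. Between bands in mock, counts below and above were 11 and 14 over the nucleus and 10 and 12 without macrophage transcripts, and 19 above without the first strip. In SspA+HDM, 4 were higher below over the nucleus, 0 below and 2 above without macrophage transcripts, 5 below with under 5% muscle transcripts, 3 and 4 without the second strip, and 5 above without the first; Mmrn1 turned to 1.80 over the nucleus and 0.38 without macrophage transcripts, where Ccn3 was 0.95 and Cyp4b1 0.020. Near vessels in mock, genes higher were 0 over the nucleus and 0 to 1 without 1 strip, and 1 lower without the first. For each, the cause was not tested, apart from fewer genes reaching 100 transcripts in smaller sets. The 268 SspA+HDM cells had 50 genes above that minimum and the 1138 mock cells 98, at median depths of 69.5 and 76 transcripts per cell.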
